A study of Mus musculus with 6 samples.

Results

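Condensin and cohesin subunits are 10 genes of the 56748 in the deposited table, found by gene name. They are the condensin genes Smc2, Smc4, Ncapd2, Ncapg and Ncaph, set against the cohesin genes Smc1a, Smc3, Rad21, Stag1 and Stag2. Each name matched 1 gene. They were measured by RNA sequencing in RAW264.7 cells, an established macrophage-like line from mouse, with 6 libraries in all. In 3 libraries the cells had been infected with lentivirus carrying Fbxw11 together with GFP (pMSCV-Fbxw11-pGk-GFP), and in 3 control libraries with lentivirus carrying the control vector, whose libraries are named for GFP. All cells were sorted before RNA extraction. Fbxw11 encodes an F-box protein that hands substrates to the SCF ubiquitin ligase, and the study's title links it to macrophage polarization. The labels name no stimulus and do not say whether libraries within a group came from separate infections, and the p-values therefore cover only library-to-library spread, which may be technical.

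Condensin and cohesin are ring-shaped protein complexes built on a pair of long SMC ATPases that are closed by a kleisin subunit. Condensin folds chromatin into compact mitotic chromosomes. Its SMC2 and SMC4 subunits are shared by condensin I, whose other subunits are the kleisin CAP-H (Ncaph) and the HEAT-repeat proteins CAP-D2 (Ncapd2) and CAP-G (Ncapg), and by condensin II, which has its own kleisin and HEAT-repeat proteins. Cohesin holds sister chromatids together from replication to anaphase and also shapes chromatin loops in interphase, so that cells use it outside mitosis too. It consists of SMC1A, SMC3, the kleisin RAD21 and either STAG1 or STAG2.

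Promoters were available for 7 of the 10 genes in the RefSeq table used (build GRCm38.p6). The 4 condensin promoters are shown because these genes moved together, and that of Smc3 because it is a cohesin counterpart of Smc2. Each run is the 250 bases before the transcription start, 5′ to 3′ on the gene's strand. Capitals mark 3 motifs on either strand, the CHR element (TTTGAA) and the CCAAT box (CCAAT), both known from promoters of genes of late cell cycle, and an E2F site, written TTCCCGC, in a second form TTGGCGC, in the third form TTCGCGC and in the last form TTGCCGC.

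Smc2, chr4:52438971-52439220, plus strand: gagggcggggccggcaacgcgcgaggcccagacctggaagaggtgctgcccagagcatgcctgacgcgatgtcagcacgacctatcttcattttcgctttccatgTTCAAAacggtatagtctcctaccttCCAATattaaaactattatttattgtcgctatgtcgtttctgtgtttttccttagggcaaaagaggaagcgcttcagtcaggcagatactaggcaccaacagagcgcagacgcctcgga
Ncapd2, chr6:125191587-125191836, minus strand: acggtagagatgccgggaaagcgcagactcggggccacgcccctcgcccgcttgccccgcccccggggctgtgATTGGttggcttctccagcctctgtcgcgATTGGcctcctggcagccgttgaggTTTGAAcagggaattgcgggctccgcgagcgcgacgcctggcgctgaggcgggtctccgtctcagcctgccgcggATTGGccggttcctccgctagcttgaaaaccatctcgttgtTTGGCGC
Ncapg, chr5:45669675-45669924, plus strand: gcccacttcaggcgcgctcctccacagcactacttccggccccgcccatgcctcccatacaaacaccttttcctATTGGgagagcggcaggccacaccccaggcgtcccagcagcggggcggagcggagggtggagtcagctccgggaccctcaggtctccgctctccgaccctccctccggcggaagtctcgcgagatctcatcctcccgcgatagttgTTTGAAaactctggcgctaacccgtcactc
Ncaph, chr2:127133955-127134204, minus strand: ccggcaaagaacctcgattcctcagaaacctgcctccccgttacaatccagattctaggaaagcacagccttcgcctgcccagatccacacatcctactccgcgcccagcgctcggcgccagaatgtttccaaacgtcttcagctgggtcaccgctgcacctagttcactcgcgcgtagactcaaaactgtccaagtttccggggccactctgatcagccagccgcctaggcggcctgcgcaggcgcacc
Smc3, chr19:53600146-53600395, plus strand: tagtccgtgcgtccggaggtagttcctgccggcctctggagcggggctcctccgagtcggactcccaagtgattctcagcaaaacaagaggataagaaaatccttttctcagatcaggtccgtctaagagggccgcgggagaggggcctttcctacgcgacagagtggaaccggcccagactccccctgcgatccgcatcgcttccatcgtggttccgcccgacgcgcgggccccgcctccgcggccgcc

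A CHR match was present in 3 of 4 condensin promoters (Smc2, Ncapd2 and Ncapg) and in 0 of 3 cohesin promoters (Smc1a, Smc3 and Stag1), while 16.3% of 27025 promoters of the same length, 1 per gene, held one. A CCAAT match was present in the same 3 condensin promoters and in 2 of 3 cohesin promoters, Smc1a and Stag1, against 34.5% of all. E2F matches were present in Ncapd2 and Stag1, against 7.97% of all. In the Ncapd2 window the CHR match lay at -123 to -118 relative to the start, and in that of Ncapg at -30 to -25. The windows of Ncaph and Smc3 held none of the 3 motifs. A further motif searched, the GC box (GGGCGG on either strand, not in capitals above), was present in 3 of 4 condensin promoters. It was present in 3 of 3 cohesin promoters, that of Smc3 included, against 32.9% of all. Such matches describe letters in a window, and the table measures transcripts, not binding.

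The labels were checked with Fbxw11, which averaged 36.1 ± 0.409 FPKM without and 271 ± 2.74 FPKM with the Fbxw11 vector (SD, n = 3). FPKM is a count of fragments scaled to gene length and sequencing depth. Reads recovered from the FPKM values summed to between 16191971 and 18951653 per library, and between 571 and 4771 reads per library lay behind each condensin or cohesin gene. A principal component holding 33.8% of the variance separated the groups, and the next (23.7%) set library 3 of each group apart from the other 4. All 7 macrophage markers examined were above 1 FPKM. Their summed level was 3147 to 3314 FPKM in the controls and 3500 to 3631 FPKM in Fbxw11 libraries. Of the 7, 3 rose (Adgre1, Itgam and Lyz2). Lyz2 alone averaged 2346 FPKM in the controls, where the sum averaged 3212 FPKM. Csf1r was lower in every Fbxw11 library (145 to 150 FPKM) than in any control (151 to 159 FPKM), but was not called. The part of these marker differences in the results below was not tested. Markers of T cells, fibroblasts and epithelium reached at most 0.130 FPKM in any library. The 3 B cell markers reached at most 2.58 FPKM, and their sums overlapped between groups (4.42 to 4.92 FPKM in control, 3.09 to 4.47 FPKM in Fbxw11 libraries).

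All 5 condensin genes fell in the Fbxw11 libraries, by 27.7% to 34.3% in mean FPKM. Of 5 cohesin genes 2 fell, Smc3 and Rad21, by 15.1% and 14.2%, and 3 did not pass. By limma 0 of the 10 rose, 0 also at an unadjusted p under 0.05 and with voom on recovered reads. At that unadjusted threshold 9 of the 10 were lower, 5 condensin and 4 cohesin genes, and voom also called 9 falls. The share of all genes past the unadjusted threshold was not counted. Changes were tested with limma on log2(FPKM + 1) over 10898 genes that averaged 1 FPKM or more, which all 10 members passed. "Fell" means an adjusted p (Benjamini-Hochberg over all genes tested) under 0.05. Over all genes tested 9.24% were called, 4.64% fell and 4.6% rose (506 fell and 501 rose; 717 and 353 on the TPM scale, 691 and 381 over plain read sums, 449 and 583 at equal library medians, 1039 and 520 with voom on recovered reads). Within the members' own range of mean FPKM, 7.79 to 54.7, 4.62% fell. Without library 3 of both groups, 5 condensin and 2 cohesin genes fell, with median log2 fold changes of -0.50 and -0.16. In bulk libraries, fewer dividing cells and less of these transcripts per cell cannot be told apart.

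**Figure D1:**
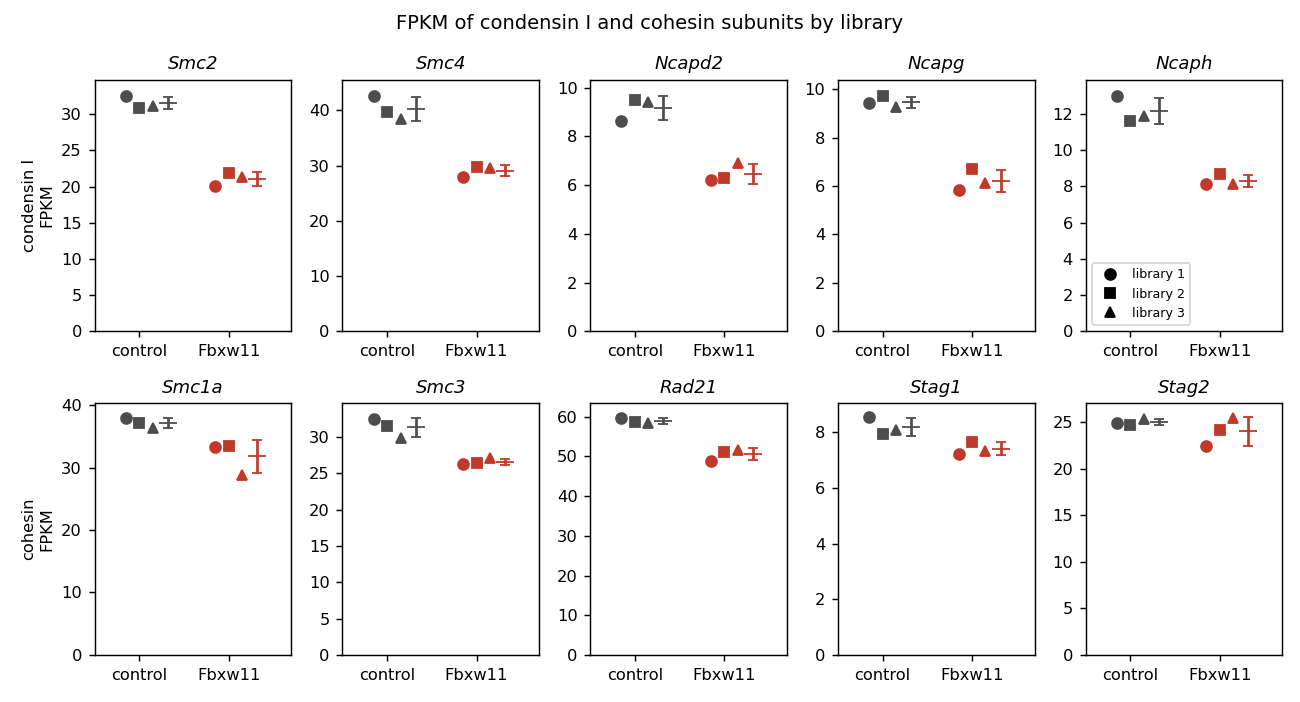
FPKM (vertical axes, from 0) of the 5 condensin genes (upper row) and 5 cohesin genes (lower row) in the 3 control and 3 Fbxw11 libraries. Symbols are libraries 1 to 3, and the bars beside them show the mean and SD of a group. All Fbxw11 libraries sit below all control libraries in every panel except that of Stag2.

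The SMC pair of condensin comes first. Smc2 (chromosome 4, 52439243 to 52488260; coordinates are those of the deposited table, with no build stated) measured 32.5, 30.9 and 31.2 FPKM in control libraries 1 to 3 and 20.0, 21.8 and 21.3 FPKM in Fbxw11 libraries 1 to 3. The groups lay far apart, the highest Fbxw11 library being 9.04 FPKM below the lowest control. Smc2 had a log2 fold change of -0.56 (SE 0.043, limma adjusted p = 0.00126), and ranked 116 from the lowest among 10898 genes. Its partner Smc4 (chromosome 3, 68912071 to 68941956) measured 42.7, 39.7 and 38.5 FPKM in the controls and 28.0, 29.8 and 29.5 FPKM in Fbxw11 libraries. All 3 Fbxw11 libraries were again below all controls, and control library 1 was the highest. Smc4 fell with a log2 fold change of -0.45 (SE 0.048, limma adjusted p = 0.00348).

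The kleisin gene of condensin I, Ncaph (chromosome 2, 126945729 to 126975874), measured 13.0, 11.6 and 11.9 FPKM in the controls and 8.14, 8.69 and 8.11 FPKM in Fbxw11 libraries. No Fbxw11 library reached a control library, and the log2 fold change was -0.50 (SE 0.052, limma adjusted p = 0.00345). Ncapg (chromosome 5, 45827261 to 45857888), for a HEAT-repeat subunit, measured 9.43, 9.70 and 9.26 FPKM in the controls and 5.81, 6.71 and 6.14 FPKM in Fbxw11 libraries. It had the largest difference in mean FPKM of the 10 in relative terms, 1.52-fold (log2 fold change -0.54, SE 0.055, limma adjusted p = 0.00317). The controls were tight (coefficient of variation 2.34%) and the Fbxw11 libraries wider (7.27%). Ncapg overlaps the end of Lcorl on the opposite strand, and the sources used here do not say whether reads were counted by strand. Lcorl had 601 to 767 reads per library and a log2 fold change of 0.00 (limma adjusted p = 0.993).

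The other HEAT-repeat gene, Ncapd2 (chromosome 6, 125144970 to 125168664), measured 8.62, 9.48 and 9.43 FPKM in the controls and 6.19, 6.27 and 6.91 FPKM in Fbxw11 libraries. Its lowest control, library 1, still lay above its highest Fbxw11 library, library 3. Ncapd2 had a log2 fold change of -0.45 (SE 0.057, limma adjusted p = 0.00643). Across the 5 genes the log2 fold changes ran from -0.56 to -0.45, and the 95% interval of each of the 5 held their median of -0.50. The SMC genes had log2 fold changes of -0.56 and -0.45 and the non-SMC genes of -0.54, -0.50 and -0.45, a difference that was not tested. All 5 were called in each of 15 alternative settings, with adjusted p up to 0.0349.

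Among cohesin genes, Rad21, the kleisin that separase cuts at anaphase, was the most abundant of the 10 (chromosome 15, 51825636 to 51855143). It measured 59.8, 58.6 and 58.3 FPKM in the controls and 48.9, 51.2 and 51.6 FPKM in Fbxw11 libraries. The groups did not overlap and Rad21 fell with a log2 fold change of -0.22 (SE 0.033, limma adjusted p = 0.0121). Smc3 (chromosome 19, 53588829 to 53634264), for an ATPase subunit, measured 32.5, 31.5 and 29.9 FPKM in the controls and 26.2, 26.4 and 27.1 FPKM in Fbxw11 libraries. It fell with a log2 fold change of -0.23 (SE 0.040, limma adjusted p = 0.0193), and the 3 Fbxw11 libraries lay within a coefficient of variation of 1.61%. Both calls were lost with fewer libraries. Without control library 1 or 2 the adjusted p was 0.0580 or 0.0586 for Rad21 and 0.0703 or 0.0831 for Smc3, and without Fbxw11 library 1 or 2 it was 0.0658 or 0.0705 for Smc3. The count of cohesin genes that fell was then 0 of 5 without control library 1 or 2 and 1 of 5 without Fbxw11 library 1 or 2, while voom on recovered reads called 4 of 5.

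Smc1a, the ATPase partner of Smc3 (chromosome X, 150799424 to 150845690), measured 37.9, 37.1 and 36.3 FPKM in the controls and 33.2, 33.5 and 28.8 FPKM in Fbxw11 libraries. The groups did not overlap, but Fbxw11 library 3 stood well below the other two. Smc1a had a log2 fold change of -0.22, like that of Smc3 and Rad21, with a larger error (SE 0.062, limma adjusted p = 0.0821). Without Fbxw11 library 3 the log2 fold change was -0.15 and did not pass either. The median over cohesin genes was then -0.15 in place of -0.22, since Smc1a had become the middle gene.

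The STAG subunits, which alternate in cohesin rings, differed in level. Stag1 (chromosome 9, 100479851 to 100841428) measured 8.53, 7.95 and 8.07 FPKM in the controls and 7.20, 7.66 and 7.34 FPKM in Fbxw11 libraries. The groups were separate by a small gap, and Stag1 did not pass (log2 fold change -0.13, SE 0.044, limma adjusted p = 0.134). Stag2 (chromosome X, 41238194 to 41366062) measured 24.9, 24.7 and 25.4 FPKM in the controls and 22.4, 24.2 and 25.5 FPKM in Fbxw11 libraries. Here alone the groups overlapped, with Fbxw11 library 3 at the top of all 6. The log2 fold change of Stag2 was -0.06 with a 95% interval of -0.18 to 0.06 (limma adjusted p = 0.542). The lower end of that interval lies above the log2 fold change of each condensin gene, and also above those of Smc1a, Smc3 and Rad21. Stag1 made up 24.7% ± 0.767 of the summed Stag1 and Stag2 FPKM in the controls and 23.6% ± 1.06 in Fbxw11 libraries (SD, n = 3), and the shares overlapped.

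Set against each other, condensin stood further below cohesin in each Fbxw11 library than in any control. The mean log2(FPKM + 1) of the 5 condensin genes was 4.19, 4.16 and 4.15 in control libraries and 3.61, 3.71 and 3.68 in Fbxw11 libraries. That of the 5 cohesin genes was 4.84, 4.80 and 4.79 in control and 4.62, 4.67 and 4.64 in Fbxw11 libraries. Both complexes were lower in each Fbxw11 library than in any control, condensin by 0.50 and cohesin by 0.17 on average (results for complexes are values with no test). Condensin minus cohesin within a library was -0.65, -0.64 and -0.64 in control and -1.01, -0.96 and -0.96 in Fbxw11 libraries, a shift of -0.33. On the log2(FPKM + 1) scale a factor common to a library moves low genes less than high ones. The shift ran from -0.37 to -0.31 over 15 alternatives, of which some changed the scaling. Of 25 pairs of a condensin and a cohesin gene, 22 had 95% intervals of the log2 fold change that did not overlap. The 3 that did were Smc4 with Smc1a and Ncapd2 with Smc1a and Smc3. The pairs reuse the same genes and libraries, so they are not separate comparisons, and the complexes were not tested against each other.

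**Figure D2:**
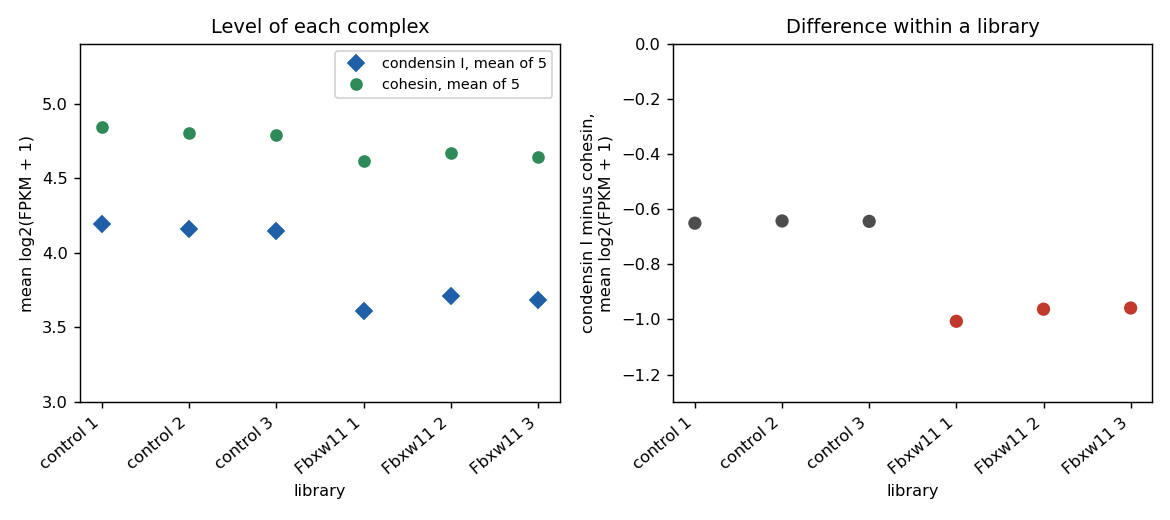
Left, mean log2(FPKM + 1) of the 5 condensin genes (diamonds) and the 5 cohesin genes (circles) in each library; the vertical axis does not start at 0. Right, their difference within each library, condensin minus cohesin, which is near -0.64 in the control libraries (grey) and -1.01 to -0.96 in the Fbxw11 libraries (red).

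The groups did not overlap for 31.1% of all genes tested. They did not, with the Fbxw11 libraries lower, for 5 of 5 condensin and 4 of 5 cohesin genes, against 15.5% of all genes tested and 14.9% of those within the members' range of FPKM. The median log2 fold change was -0.50 for condensin and -0.22 for cohesin, beside 0.00 for all genes tested. By rank from the lowest log2 fold change among 10898 genes, condensin genes stood at 116 (Smc2), 142 (Ncapg), 179 (Ncaph), 234 (Smc4) and 240 (Ncapd2). Cohesin genes stood at 844 (Smc3), 900 (Smc1a), 910 (Rad21), 1870 (Stag1) and 3502 (Stag2). All condensin genes were thus within the lowest 2.20% of genes, and no cohesin gene was.

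**Figure D3:**
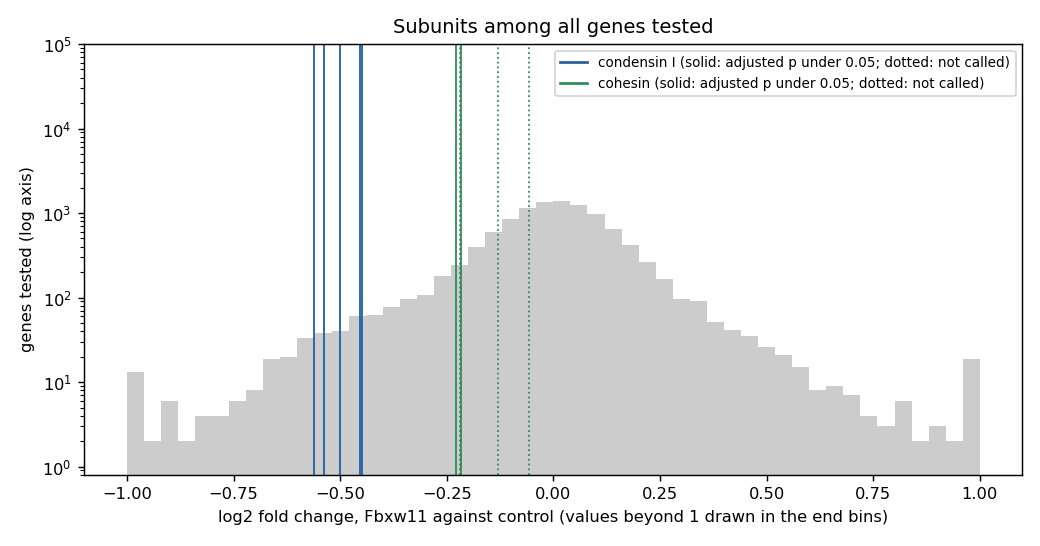
Number of genes tested (log axis) by log2 fold change of Fbxw11 against control libraries, with a line for each condensin gene (blue) and cohesin gene (green). Solid lines mark genes with an adjusted p under 0.05 and dotted lines those not called; the condensin lines lie between -0.56 and -0.45 and the cohesin lines between -0.23 and -0.06.

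Because FPKM is per length, levels can also be compared between subunits. The order, and ratios or shares between genes, depend on the deposited gene lengths, and the sources used here do not say how these were set. In control libraries the order by mean FPKM was Rad21 (58.9), Smc4 (40.3), Smc1a (37.1), Smc2 (31.5), Smc3 (31.3), Stag2 (25.0), Ncaph (12.2), Ncapg (9.46), Ncapd2 (9.17) and Stag1 (8.18). Neighbours overlapped in range for Smc2 with Smc3 and for Ncapg with Ncapd2 only. In Fbxw11 libraries Smc2 (21.0) stood below both Smc3 (26.6) and Stag2 (24.0), and Stag1 (7.40) stood above Ncapd2 (6.46) and Ncapg (6.22). There Smc1a overlapped with Smc4, and Ncapd2 with Ncapg. In both groups each non-SMC gene of condensin I was below Smc2 and Smc4, the SMC genes that condensin II shares.

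Ratios of FPKM within a library compare genes directly. Smc2 to Smc3 was 1.01 ± 0.0323 in control libraries against 0.792 ± 0.0323 in Fbxw11 libraries, with no overlap. These genes belong to different complexes and are not partners, and their ratio was not among those planned. Smc2 to Smc4, partners in a dimer, was 0.783 ± 0.0243 and 0.723 ± 0.00849, again with no overlap. Smc1a to Smc3 was 1.19 ± 0.0256 and 1.20 ± 0.117, overlapping, with Fbxw11 library 3 at 1.06 and the other two Fbxw11 libraries at 1.27. Ratios are descriptions over n = 3 libraries a group, and none was tested.

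Other genes of the same machinery, taken from 6 lists made by function, were read from the same fit. Of 41 genes 36 were tested, 15 fell and 0 rose by limma. At an unadjusted p under 0.05, 23 were lower and 1, Mau2, was higher (the share of all genes was not counted). With voom 23 fell and 0 rose. Over all genes tested 4.64% fell and 4.6% rose by limma, and 1039 of 10898 fell with voom. These shares also stand beside the counts of each list below. Without control library 1, or without control library 2, 9 fell.

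Of the 3 genes particular to condensin II, 2 fell. Ncapg2, for its HEAT-repeat subunit CAP-G2, measured 10.7, 10.8 and 10.9 FPKM in the controls and 6.66, 6.90 and 6.78 FPKM in Fbxw11 libraries (log2 fold change -0.60, SE 0.035, limma adjusted p = 0.000646). Ncapd3, for CAP-D3, fell from 6.90 ± 0.120 to 4.40 ± 0.136 FPKM (a log2 fold change of -0.55, limma adjusted p = 0.00125). The condensin I genes, for comparison, ran from -0.56 to -0.45. The kleisin gene Ncaph2, named outside the rule after its value was seen, stood at 15.2 ± 1.26 and 13.1 ± 0.387 FPKM and did not pass (log2 fold change -0.20, limma adjusted p = 0.0974). Its highest Fbxw11 library (13.5 FPKM) was below its lowest control (14.0 FPKM), and voom on recovered reads called 3 of 3 condensin II genes as falls. The ratio of the kleisins, Ncaph to Ncaph2, was 0.926, 0.766 and 0.720 in control and 0.603, 0.682 and 0.622 in Fbxw11 libraries, with no overlap.

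Of 6 genes that load cohesin (Nipbl, Mau2), release it or hold it on chromatin (Wapl, Pds5a, Pds5b) or stop it at loop anchors (Ctcf), 0 were called by limma. At an unadjusted p under 0.05, Pds5a and Pds5b were lower and Mau2 was higher, and voom on recovered reads called 2 falls, Pds5a and Pds5b (all 3 named after their values were seen). The share of all genes past that unadjusted threshold was not counted. The 2 most abundant were Wapl, at 54.6 ± 1.21 FPKM in the controls and 55.0 ± 0.205 FPKM in Fbxw11 libraries, and Ctcf, at 23.9 ± 0.776 and 22.7 ± 0.459 FPKM. Wapl had a log2 fold change of 0.01 (-0.03 on the TPM scale) and Ctcf one of -0.07 (limma adjusted p = 0.883 and 0.277). The median of the list was -0.06.

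Of 11 tested genes that establish, protect or cut cohesion, 5 fell and 0 rose, with a median log2 fold change of -0.31. Sgo1, the shugoshin that protects cohesin at centromeres, fell from 3.34 ± 0.162 to 1.84 ± 0.303 FPKM (1.81-fold, a log2 fold change of -0.62, limma adjusted p = 0.00982). Pttg1, securin, the inhibitor of separase, fell from 8.08 ± 0.413 to 5.53 ± 0.418 FPKM (a log2 fold change of -0.48, limma adjusted p = 0.00658). Esco2, the acetyltransferase that locks cohesin in S phase, fell from 2.97 ± 0.198 to 1.60 ± 0.380 FPKM (1.85-fold, limma adjusted p = 0.0205). Chtf18, of an alternative clamp loader, fell from 2.84 ± 0.154 to 1.77 ± 0.254 FPKM, and Espl1, separase, from 1.91 ± 0.0645 to 1.35 ± 0.0644 FPKM (limma adjusted p = 0.0198 and 0.0308). The calls of these last 3 were lost without single libraries. For Esco2 these were control libraries 1 and 2 and Fbxw11 libraries 1 and 2 (adjusted p = 0.0537 to 0.0846), for Chtf18 any control library (0.0579 to 0.0786), and for Espl1 any of the 6 (0.0679 to 0.123).

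Meiotic cohesin was near 0. Rec8 had 0 reads in every library, where a count of 0 still allows 3, and Smc1b had at most 3 reads in a library. None of the 4 meiotic genes (Rec8, Rad21l, Smc1b and Stag3) was tested.

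The SMC5/6 complex, the third SMC complex, which acts in DNA repair, had 2 of 6 genes that fell and 0 that rose. Smc6 fell from 8.25 ± 0.103 to 7.07 ± 0.255 FPKM (a log2 fold change of -0.20, limma adjusted p = 0.0308). Nsmce4a, a non-SMC subunit gene, fell from 7.34 ± 0.674 to 5.46 ± 0.590 FPKM (a log2 fold change of -0.37, limma adjusted p = 0.0459). Both calls were lost without any one of control libraries 1 to 3 and Fbxw11 libraries 1 and 2 (adjusted p = 0.0763 to 0.121 for Smc6 and 0.0560 to 0.140 for Nsmce4a). The median of the list was -0.20, beside -0.22 for cohesin.

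Of 10 partners of condensin on mitotic chromosomes, 6 fell and 0 rose, with a median of -0.42. Top2a, the topoisomerase that works beside condensin on the chromosome axis, fell from 23.5 ± 1.45 to 15.2 ± 0.673 FPKM (a log2 fold change of -0.60, SE 0.056, limma adjusted p = 0.00234). Mki67, the surface coat protein of mitotic chromosomes and a proliferation marker, fell from 21.6 ± 0.371 to 12.7 ± 0.668 FPKM (a log2 fold change of -0.73). Kif4, the chromokinesin that binds condensin, fell from 5.97 ± 0.151 to 3.92 ± 0.244 FPKM (a log2 fold change of -0.50, limma adjusted p = 0.00335). In the chromosomal passenger complex, Cdca8 fell by 0.44, Birc5 by 0.43 and Incenp by 0.41 on the log2 scale, while Aurkb, the kinase of that complex, did not pass (log2 fold change -0.30, limma adjusted p = 0.123). The call of Incenp was lost without any one of control libraries 1 to 3 or without Fbxw11 library 1 (adjusted p = 0.0711 to 0.0925). Plk1, Top2b and Mcph1 did not pass either, with log2 fold changes of -0.38, -0.12 and -0.09. With voom on recovered reads 9 of the 10 partners fell and 0 rose. Fbxw11 libraries were all below the controls for 9 of the 10, Mcph1 being the exception, against 15.5% of all genes tested. Over all 10 partners the log2 fold changes ran from -0.73 to -0.09, beside -0.56 to -0.45 for the condensin genes.

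**Figure D4:**
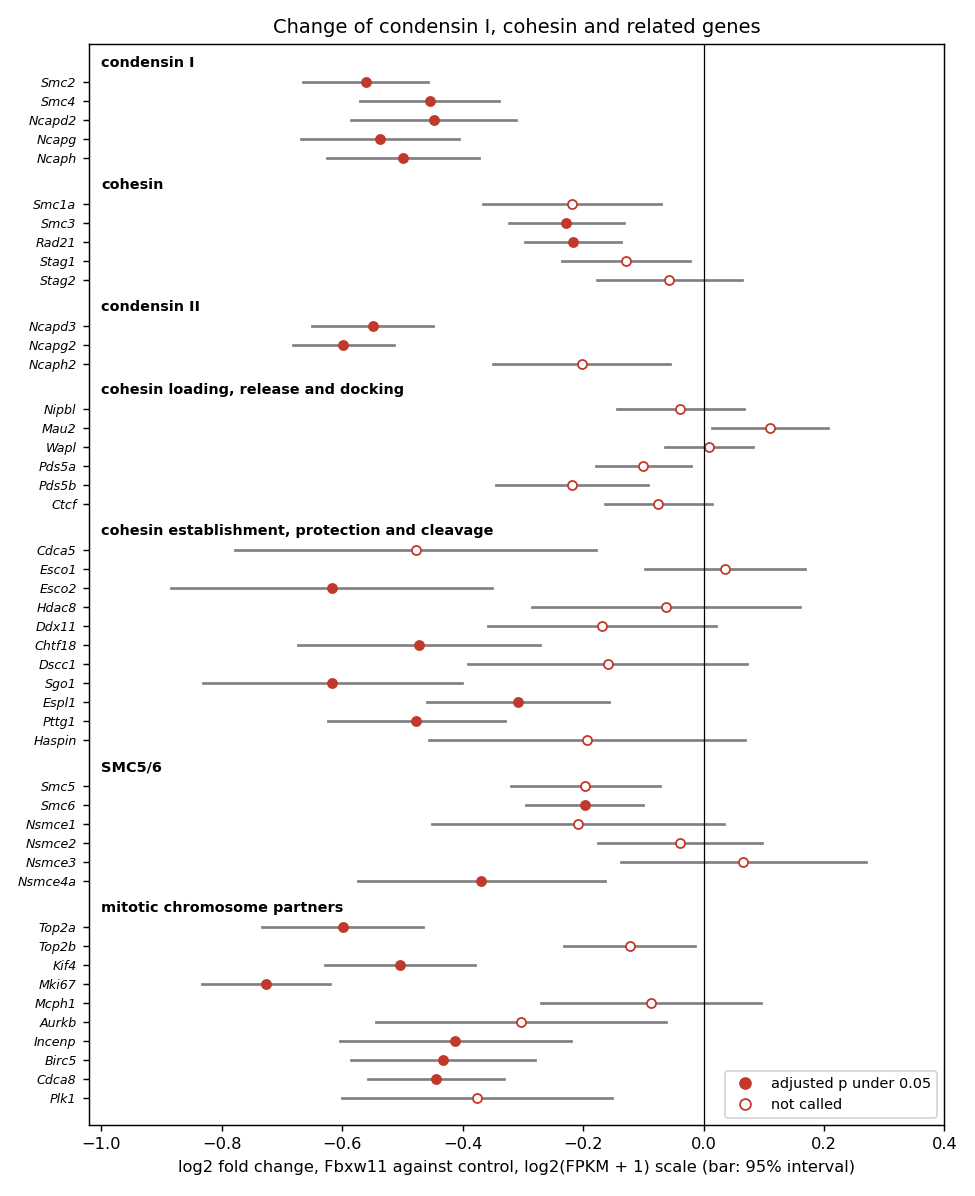
Log2 fold change of Fbxw11 against control libraries on the log2(FPKM + 1) scale (horizontal axis) with 95% intervals for the condensin, cohesin and other tested genes, grouped by list. Filled circles have an adjusted p under 0.05. Condensin I genes lie between -0.56 and -0.45, cohesin genes between -0.23 and -0.06, and the cohesin loading, release and docking genes between -0.22 and 0.11.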

How the data were processed

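RNA was sequenced from 3 control and 3 Fbxw11 libraries of RAW264.7 cells. The values analysed are FPKM as deposited by the authors, 1 column per library, with the gene length in base pairs also given by the authors. The submitters' processing notes name mm10 as the build, but 1 of the 10 genes had the same start and end in GENCODE vM21 of that build (10 of 10 the same span), so the file's coordinates are printed with their build not stated. The sources used here do not name the aligner, counter, strand setting or filters.

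Multiplied by gene length, 100% of FPKM values above 0 were whole multiples of 1 step per library (within 0.02 reads), which gave the reads behind each value. The library size the authors divided by was 1.01 to 1.02 times the recovered reads in the controls and 0.987 to 0.993 times with Fbxw11. The median log2 fold change of all genes was 0.00 as deposited and -0.03 over plain read sums. The main test was limma 3.58.1 (R 4.3.3; lmFit and eBayes with trend, two-sided, no covariate) on log2(FPKM + 1) for genes that averaged 1 FPKM or more, with Benjamini-Hochberg adjustment and a threshold of 0.05. Fold changes on this scale understate changes of low genes. Errors are SD over n = 3 libraries or limma standard errors. The procedure was also run on simulated counts with a fixed dispersion and no library effect. That run therefore does not give its error rate in these data.

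All 10 members are named, with those called in each of 6 further lists, or the 2 most abundant where none was called. Members and lists were chosen with earlier results of these data known. Count models planned as alternatives were not run because the deposited unit is FPKM, and voom on recovered reads was added after seeing the data, as were plain read sums.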

Additional observations from a re-analysis of the deposited data

How the results depend on the processing

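The 15 alternatives changed the pseudocount, the filter, the scaling or the test, added the replicate number, or left out libraries. The 5 condensin genes fell and 0 of the 10 rose in each of them. The 2 cohesin falls became 4 with voom on recovered reads and 0 to 2 with a library left out. The 15 falls among other pathway genes became 9 with no filter on low values, 23 with voom, and 9 to 15 with a library left out. Over all genes, 506 falls and 501 rises became 307 and 289 with no filter, 1039 and 520 with voom, 335 and 363 without library 3 of both groups, and 220 to 383 and 190 to 418 with a library left out. The log2 fold change of Wapl turned negative on the TPM scale (-0.033), over plain read sums (-0.0271) and with voom (-0.0275). It was -0.0087 without library 3 of both groups and ran from -0.0057 to 0.0257 with a library left out; the cause was not tested. The count models listed as alternatives were not run.

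The groups share replicate numbers, and same-numbered libraries correlated in their deviations from the group means at 0.0361, 0.0405 and 0.189, with control library 1 correlating best with Fbxw11 library 2, so the numbers were not taken to pair the libraries. With the replicate block, 5 condensin genes and 1 cohesin gene fell, Smc3 being lost (limma adjusted p = 0.0603), and 12 other pathway genes fell in place of 15. The calls of Esco2, Espl1, Smc6 and Nsmce4a were lost there (limma adjusted p = 0.0542, 0.0963, 0.0865 and 0.0999). Among the 12 was a gene not called in the main fit. Over all genes 318 fell and 303 rose. Between 571 and 4771 reads per library limit the precision of each of the 10 genes, a counting error of at most 4.18%.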
